A study of Homo sapiens with 22 samples.

Results

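Human BJ fibroblasts sampled during days 3, 5 and 7 of reprogramming were compared with cells sampled on days 9, 11, 13 and 15 of the same time course. BJ is an established line of foreskin fibroblasts, and reprogramming was carried out in microfluidic channels by daily transfection of messenger RNAs coding for POU5F1, SOX2, KLF4, MYC, LIN28 and NANOG. Per the study's methods the transfections had ended by day 9 and the culture medium was also exchanged from then on, so that time, the end of transfection and the medium change cannot be told apart in this comparison. The comparison used 14 of the 16 pools of the series, namely 6 early pools (A and B of D3, D5 and D7) and 8 late pools (A and B of D9, D11, D13 and D15). Pools were assigned by day of sampling alone, and the comparison itself was chosen with earlier results of these data known. The other 2 pools are untransfected fibroblasts of D0, given as the starting level. Each pool joined the cells of 4 chips, all chips started from 1 cell line, and the cells were frozen and thawed before droplet capture, so p-values measure the spread between pools and not between donors.

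Reprogramming replaces the transcription factor network of a differentiated cell with that of pluripotent stem cells. In fibroblasts this involves the loss of mesenchymal genes, the gain of epithelial junctions (a mesenchymal-to-epithelial transition), and the activation of the silent copies of POU5F1, SOX2 and NANOG, which then maintain one another together with genes such as DNMT3B, LIN28B and the TGF-beta family ligands NODAL and LEFTY. Pluripotent cells are also known for a rapid cell cycle, a high level of DNA repair and low levels of MHC class I and of interferon-driven genes.

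The 14 pools held 13472 early and 17727 late cells, between 571 (pool A of D15) and 4779 (pool B of D3), and between 33181614 and 180056814 UMIs (unique molecular identifiers, each marking 1 captured RNA molecule). Levels of single genes (CPM) are UMI counts scaled to an equal total per pool, after each pool's total was adjusted by a scaling factor. The summed levels of marker lists are scaled to the unadjusted totals. The test was edgeR's quasi-likelihood test on the summed UMIs, with each day weighted equally. The median number of UMIs per cell was 48243 ± 17301 (SD, n = 6) in the early and 50327 ± 12207 (n = 8) in the late pools (exact permutation test, two-sided, p = 0.806, adjusted p = 0.886), and the median share of mitochondrial UMIs was 3.44% ± 0.768 and 4.41% ± 1.21 (p = 0.116, adjusted p = 0.159). The summed level of 10 fibroblast markers ran from 3946 to 8211 CPM in the early pools and from 983 to 3552 CPM in the late pools, against 11153 and 11381 CPM on D0. The 10 markers of pluripotent cells summed to 75.2 to 514 CPM early, 1379 to 4039 CPM late and 44.5 to 44.8 CPM on D0. In sums over a pool, fewer cells of a type and less RNA per cell cannot be told apart.

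Of 12794 genes tested, 5565 (43.5%) differed between the late and the early pools at an adjusted p below 0.01 and a log2 difference beyond 0.25. They were split almost evenly, with 2689 genes (21%) higher and 2876 (22.5%) lower in the late pools, and the median difference over all genes was −0.02. A difference of at least 2-fold was called for 1422 genes (11.1%) upwards and 1147 genes (8.97%) downwards. Of these, 1001 rises (7.82% of genes tested) and 676 falls (5.28%) also had all pools of one class above all pools of the other. With 3 days against 4 there are 35 ways to divide the days and the smallest two-sided exact p is 0.0571, so the calls rest on pools within days as replicates. When the class was the only factor, so that the spread between days entered the error, 3537 genes were called, among them 2205 (85.8%) of those called at 2-fold or more. Of the 197 genes covered by the naming rule, 41 lost their call in that fit.

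**Figure D1:**
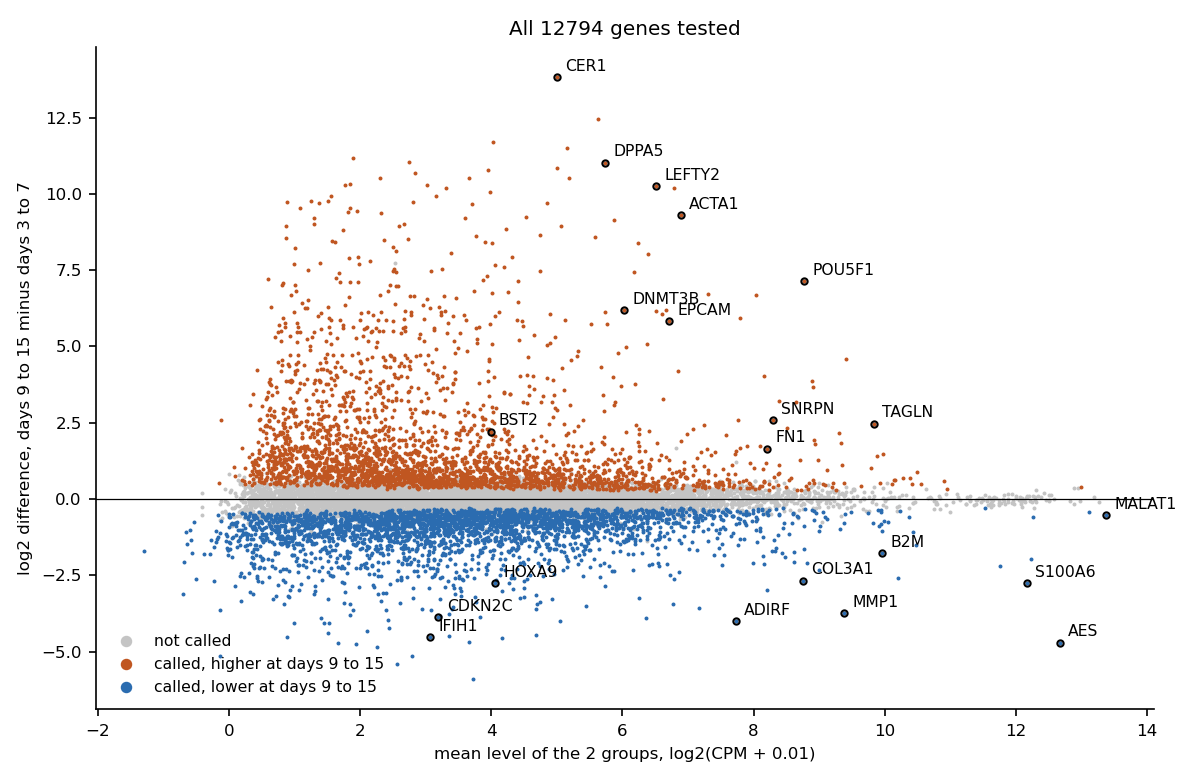
Each point is 1 of 12794 genes, with the mean level of the 2 classes on the x axis (log2 of CPM + 0.01) and the fitted log2 difference between days 9 to 15 and days 3 to 7 on the y axis. Rises reach 13.83 (CER1) while the lowest value is −5.90 (MAP1LC3C).

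The largest rises were of genes nearly silent before day 7. The 12 genes taken here were the largest called rises that reached at least 50 CPM and did not overlap between the classes, and none of them exceeded 0.369 CPM in any pool of D3 or D5. They include the secreted TGF-beta family member NODAL with its antagonists LEFTY2 and CER1, the stem cell gene DPPA5, the noncoding RNAs FOXD3-AS1 and RP11-568A7.4, the skeletal muscle actin ACTA1, the gelatinase MMP9, the natriuretic peptide NPPB, the placental lactogen CSH1 and the protease inhibitor WFDC2. Their late means lay between 57.1 and 236 CPM. On such low early counts a fitted log2 difference depends on the constant added to the counts, so levels and ratios of levels are given for these genes.

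LEFTY2 (ENSG00000143768, chromosome 1 of GRCh38, 225936598 to 225941383) stood at 0.0212 and 0.0143 CPM in pools A and B of D3, at 0.369 and 0.0591 on D5 and at 0.21 and 0.811 on D7. It stood at 224 and 227 CPM on D9, 305 and 280 on D11, 151 and 85.5 on D13 and 82.05 and 104.7 on D15. The late mean of 182 ± 88.5 CPM (n = 8) was 737 times the early mean of 0.247 ± 0.308 (n = 6; adjusted p = 5.1e-10, edgeR), and the change from D7 to D9 was itself called (adjusted p = 8.6e-06). NODAL (chromosome 10, 70431936 to 70447951), the ligand that LEFTY2 antagonises, was at most 0.112 CPM on D3 and D5, rose to 6.94 and 3.06 CPM on D7 and to 178 and 198 on D9, and stood at 37.8 and 49.7 on D15. Its ratio of late to early means was 68.1. NODAL was thus highest on D9 and LEFTY2 on D11, and both pools of D15 lay below all pools of D9 and D11 for both genes.

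CER1 (chromosome 9, 14719724 to 14722733) was slower by 1 sampling day. A single UMI was counted in the 6 early pools together and 63184 in the 8 late pools, a ratio of rates of 45582 with a counting interval from 8181 to 1800400 (exact, 95%, counting error only). Its level was 0.577 and 0.868 CPM on D9, 109 and 84.5 on D11, 69.2 and 112 on D13 and 51.8 and 84.5 on D15. DPPA5 (chromosome 6, 73353063 to 73354276) and FOXD3-AS1 (chromosome 1, 63320878 to 63324441) went up over a longer time. DPPA5 went from 22.3 and 23.0 CPM on D9 to its highest mean on D13 (128 and 222) and stood at 147 and 150 on D15. FOXD3-AS1 went from 44.7 and 46.7 on D9 to 396 and 272 on D15.

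Other leading rises peaked and came down again within the late days. ACTA1 (chromosome 1, 229430365 to 229434104) stood at 79.2 and 125 CPM on D9, 654 and 548 on D11, 268 and 84.3 on D13 and 56.3 and 72.5 on D15. CSH1 (chromosome 17, 63894909 to 63896661), whose reads may be shared with its near-identical neighbour CSH2, followed the same course with 160 and 149 CPM on D11 and 7.01 and 12.4 on D15. MMP9 stood at 131 and 97.5 CPM on D11 and at 21.6 and 26.3 on D15. Among all 1001 rises, the day with the highest mean was D15 for 547, D13 for 285, D11 for 101, D9 for 54 and the starting D0 for 14. In 68 of them (6.79%) both pools of D15 lay below every pool of D9 and D11, so a class mean hides the course of these genes.

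**Figure D2:**
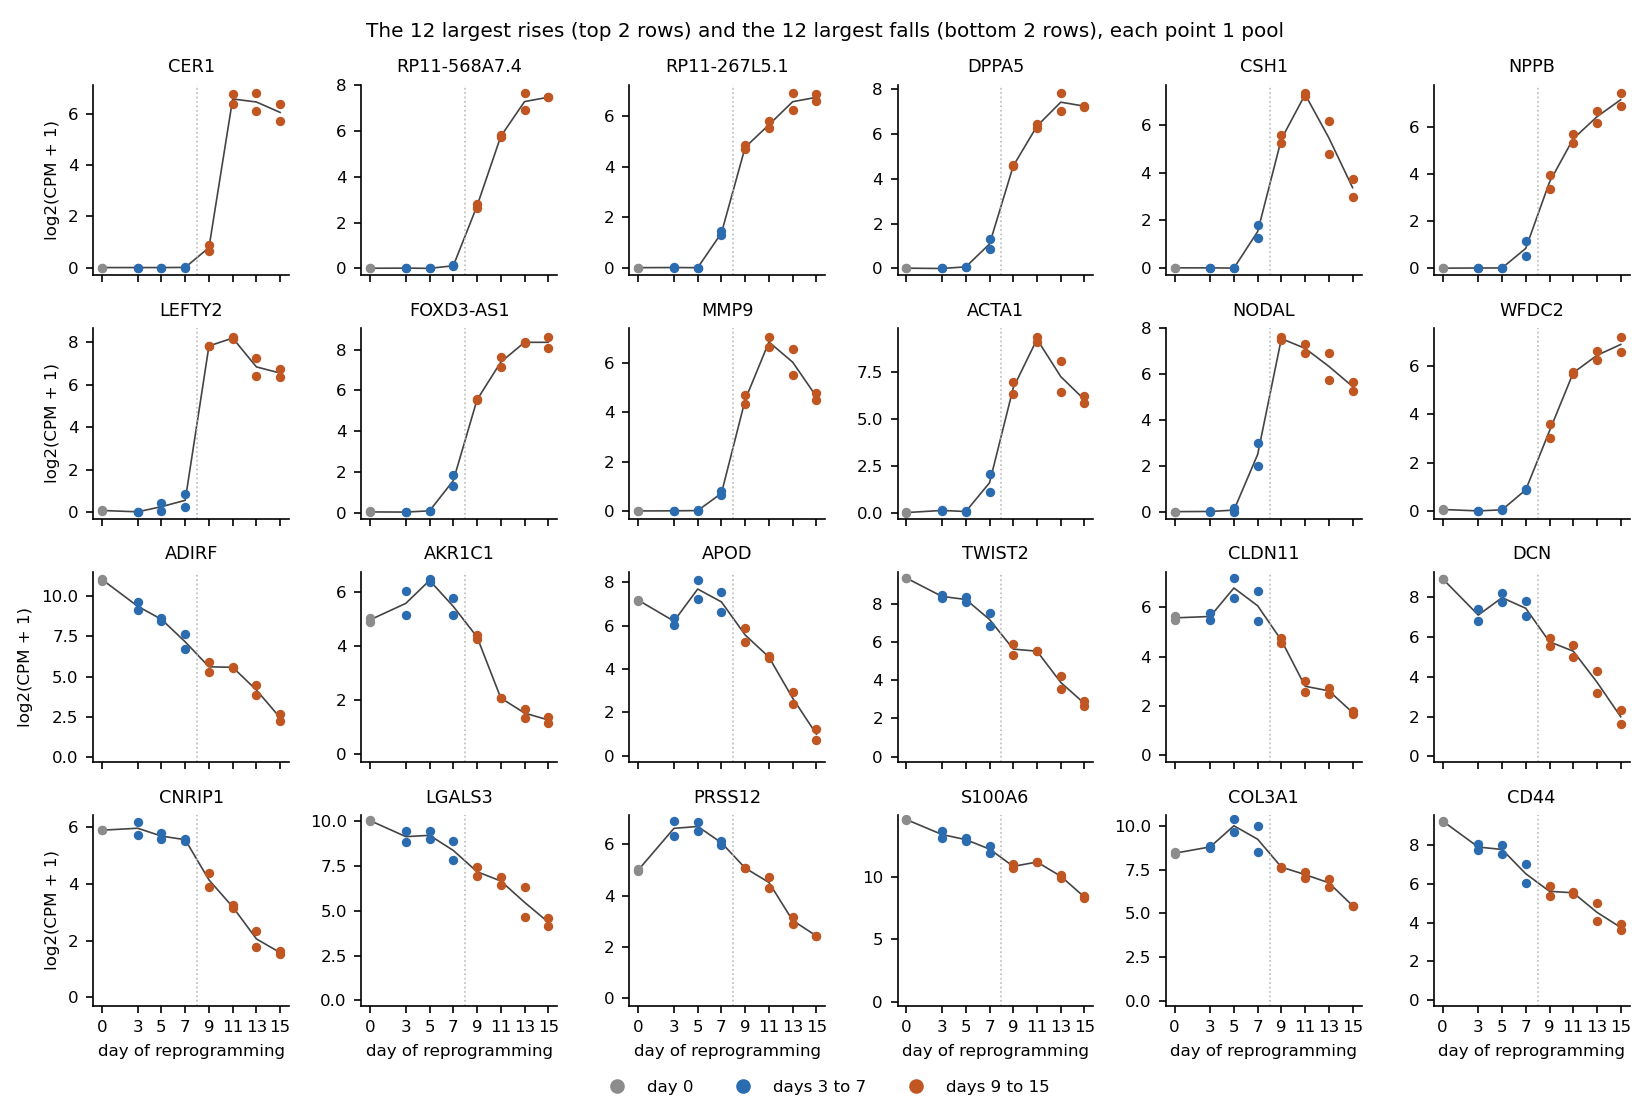
Level of 24 genes in each pool (log2 of CPM + 1) by day of reprogramming, with a line through the day means and a dotted line at day 8; the upper 2 rows hold the 12 largest rises and the lower 2 rows the 12 largest falls. The rises are at or near 0 until day 5, and CSH1, MMP9, ACTA1 and LEFTY2 come down again after day 11 and NODAL after day 9, whereas most of the falls go on to day 15.

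The largest falls among genes of at least 50 CPM in the early pools and with no overlap between the classes included transcripts abundant in the starting fibroblasts. Larger falls were found outside these limits, down to −5.90, and AES (−4.71), whose pools overlapped, was one of them. The 12 genes named by the same rule were ADIRF, AKR1C1, APOD, TWIST2, CLDN11, DCN, CNRIP1, LGALS3, PRSS12, S100A6, COL3A1 and CD44, with log2 differences from −4.01 to −2.61. ADIRF (chromosome 10, 86968432 to 86983934), a regulator of fat cell differentiation, was at 2136 and 1971 CPM on D0, at 546 and 781 on D3, 102 and 195 on D7, 59.4 and 38.2 on D9 and 3.67 and 5.44 on D15. The small calcium-binding protein S100A6 (chromosome 1, 153534599 to 153536244) went from 24718 and 23191 CPM on D0 through 8759 and 12576 on D3, 3852 and 5717 on D7 and 2025 and 1606 on D9 to 306 and 356 on D15, with a fitted difference of −2.75 between the classes (SE 0.12, adjusted p = 1.1e-09). TWIST2, a transcription factor of mesenchymal cells, had early pools between 111 and 348 CPM and late pools between 5.31 and 59.2.

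Some of the falls followed an early level above that of D0. COL3A1 (chromosome 2, 188974373 to 189012746), a chain of fibrillar collagen, stood at 330 and 364 CPM on D0, rose to 1335 and 803 on D5 and then stood at 358 and 1025 on D7, 203 and 196 on D9 and 42.3 in both pools of D15. The steroid-reducing enzyme AKR1C1 was likewise at 32.3 and 28.7 CPM on D0, 81.6 and 89.0 on D5, 18.2 and 20.2 on D9 and 1.24 and 1.58 on D15; its reads may be shared with other AKR1C genes. The neuronal microtubule protein MAP2 was at 1.28 and 1.53 CPM on D0, between 23.7 and 43.7 in the early pools and at 1.52 and 1.403 on D15. Of the 676 falls, 52 (7.69%) had an early mean at least 2 times that of D0, 507 (75%) had a D0 mean above the early mean, and 651 (96.3%) had a D0 mean above the late mean. The lowest day was D15 for 526 of the 676 (77.8%).

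The share of the class difference that lay at the boundary between the classes varied among genes. For the 1001 rises a median of 46.01% of the class difference (quartiles 35.5% to 58.7%) lay in the step from D7 to D9, and for the 676 falls a median of 57.3% (44.6% to 72.4%). An even slope over all days would put 28.6% of the difference in those 2 days. The step alone, with 2 pools against 2, called 943 genes (7.37%). These shares are a description with no test, since D7 and D9 are part of the class means and the requirement of no overlap itself places every D9 pool beyond every D7 pool. Without that requirement, an alternative chosen after seeing the data, the median share was 42.5% (27.8% to 57.4%) for the 1422 rises and 56.9% (40.2% to 75.1%) for the 1147 falls called at 2-fold or more. The share was below 0 for 103 of the rises and 35 of the falls.

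Among rises of at least 50 CPM with no overlap between the classes, FST, which binds and blocks activin, had the largest share in this step. Its early pools lay between 30.2 and 44.04 CPM, its D9 pools at 113 and 127 and its D15 pools at 73.2 and 92.5 (class difference 1.73, adjusted p = 5.8e-08; 112% of it between D7 and D9). The shares in this step were 94.6% for the nuclear lamina gene LMNB1, 98.8% for the uracil-DNA glycosylase UNG and 88.5% for the hexokinase HK1. The endothelial factor EGFL7 stood at the other end of these genes, with 16.01% of its difference in the step, 19.7 and 22.3 CPM on D7, 25.8 and 23.5 on D9 and 88.2 and 77.2 on D15. Falls divided in the same way. The growth factor PTN went from 94.4 and 137 CPM on D7 to 52.1 and 54.6 on D9 and 43.9 and 47.7 on D15, while the phospholipid-binding ANXA2 went from 2020 and 1764 on D7 through 1694 and 1404 on D9 to 229 and 316 on D15, with 19.2% of its difference in the step.

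**Figure D3:**
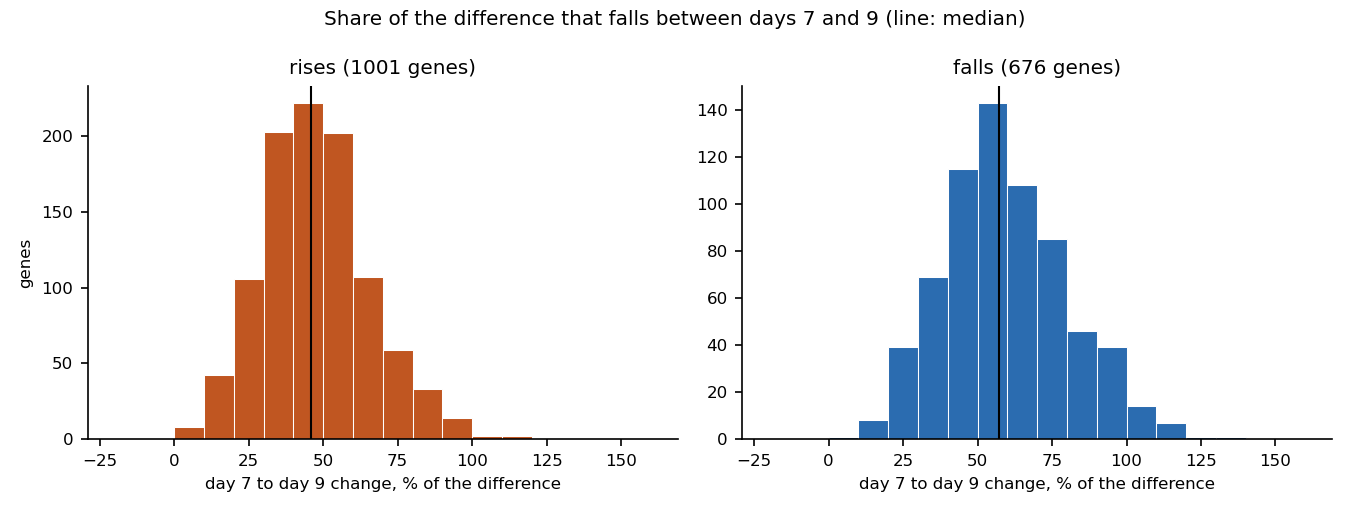
Number of genes (y axis) by the share of their class difference that falls between days 7 and 9 (x axis, %), for the 1001 rises and 676 falls called at 2-fold or more with no overlap; black lines mark the medians of 46.01% and 57.3%. A share of 50% or more is seen for 444 of the 676 falls (65.7%) and 420 of the 1001 rises (42.0%). All were chosen for pools that do not overlap, and without that condition it is 709 of 1147 falls (61.8%) and 517 of 1422 rises (36.4%).

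The 6 transfected factors behaved differently from one another. Counts at the gene do not tell transfected from endogenous RNA where the delivered molecule carries the counted end of the gene. Whether it does was not tested for any of the 6, so the counts are given without a split by source. POU5F1 (chromosome 6, 31164337 to 31180731), the core pluripotency regulator, stood at 0.668 and 1.51 CPM on D3, 3.32 and 6.21 on D5, 40.2 and 31.2 on D7, 414 and 446 on D9, 835 and 872 on D11, 1221 and 755 on D13 and 1167 and 1166 on D15. Its pseudogenes may take part of these reads. Every late pool was above every early pool, and the late mean of 859 ± 316 CPM was 62.1 times the early mean of 13.8 ± 17.3 (log2 difference 7.14, SE 0.25, adjusted p = 2e-10). NANOG (chromosome 12, 7787794 to 7799146) was below 1 CPM on D3 and D5, at 12.8 and 10.1 CPM on D7, at 65.2 and 62.7 on D9 and between 38.02 and 66.8 thereafter, so that its level did not go on rising as that of POU5F1 did.

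SOX2 (chromosome 3, 181711925 to 181714436) was late. Its pools stood at 3.52 and 13.3 CPM on D3, 31.0 and 54.3 on D5, 27.0 and 11.01 on D7 and 29.7 and 21.6 on D9, and then rose through 75.7 and 68.7 on D11 and 150 and 165 on D13 to 275 and 250 on D15. The class difference was called (2.30, adjusted p = 2.6e-05), but early and late pools overlapped. The step from D7 to D9 was 0.43 (adjusted p = 0.65). LIN28A, an RNA-binding protein that blocks let-7 maturation, spread from 14.5 to 269 CPM early and from 139 to 573 late and was not called (1.20, adjusted p = 0.020). It was called without pool B of D3 (1.72, adjusted p = 0.0015), without pool A of D13 (1.37, adjusted p = 0.0043) and without the filter on genes (1.09, adjusted p = 0.0011). MYC was called at 0.82 (adjusted p = 0.0061), with early pools between 9.22 and 44.8 CPM and late pools between 21.7 and 67.2. The call was lost in 16 of 33 alternative settings, with a difference of 0.49 (adjusted p = 0.066) without both pools of D3 and of 0.67 to 0.87 (adjusted p = 0.010 to 0.075) in the other 15. KLF4 was at 56.8 CPM on D0, between 2.74 and 9.12 in the early and 1.59 and 6.52 in the late pools, and was not called (−0.70, adjusted p = 0.074).

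At 5000 UMIs per cell, 3.65% ± 4.30 of cells (SD, n = 6 pools) held a UMI of POU5F1 in the early pools and 73.3% ± 18.2 (n = 8) in the late pools (exact permutation test over pools, two-sided, p = 0.000666, the smallest that this test can give, adjusted p = 0.00244), against a background of 0.0758% in D0 fibroblasts thinned to the same depth. The permutation tests here take the 2 pools of a day as independent, so their p-values do not cover the spread between days. Over days alone the smallest exact p is 0.0571. The median number of UMIs per cell before thinning was 26047 on D0 (mean of the medians of both pools). For NANOG the shares were 1.39% ± 2.02 and 20.3% ± 3.23, with 0.22% on D0 (exact p = 0.000666, adjusted p = 0.00244). The difference of 18.9 percentage points was 55.2 points without thinning. SOX2 was found in 6.64% ± 3.99 and 33.9% ± 22.6 of cells (adjusted p = 0.020, exact permutation test), and the lowest late pool, at 7.10%, lay within the early range of 1.39% to 11.8%. LIN28A was found in 26.9% ± 15.9 and 58.1% ± 21.9 (adjusted p = 0.023, exact permutation test). The shares of MYC (11.3% ± 5.35 and 16.3% ± 5.50) and of KLF4 (2.99% ± 1.63 and 1.72% ± 0.993) differed by less than the test could resolve (adjusted p = 0.159 for each, exact permutation test), with 8.62% and 23.0% of cells on D0.

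AES, which codes for a corepressor of the TLE family, is given beside the factors because its counts were far above the starting level during transfection. It was at 152 and 167 CPM on D0, between 7514 and 13739 CPM in the 6 early pools, still at 11275 and 7636 on D9, and then at 360 and 331 on D11, 123 and 72.8 on D13 and 80.4 and 72.1 on D15. The class difference of −4.71 (adjusted p = 1.1e-10) therefore hid that the D9 pools lay within the early range, and it was not called with the class as the only factor (−2.06, adjusted p = 0.15). The source of these reads was not tested.

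**Figure D4:**
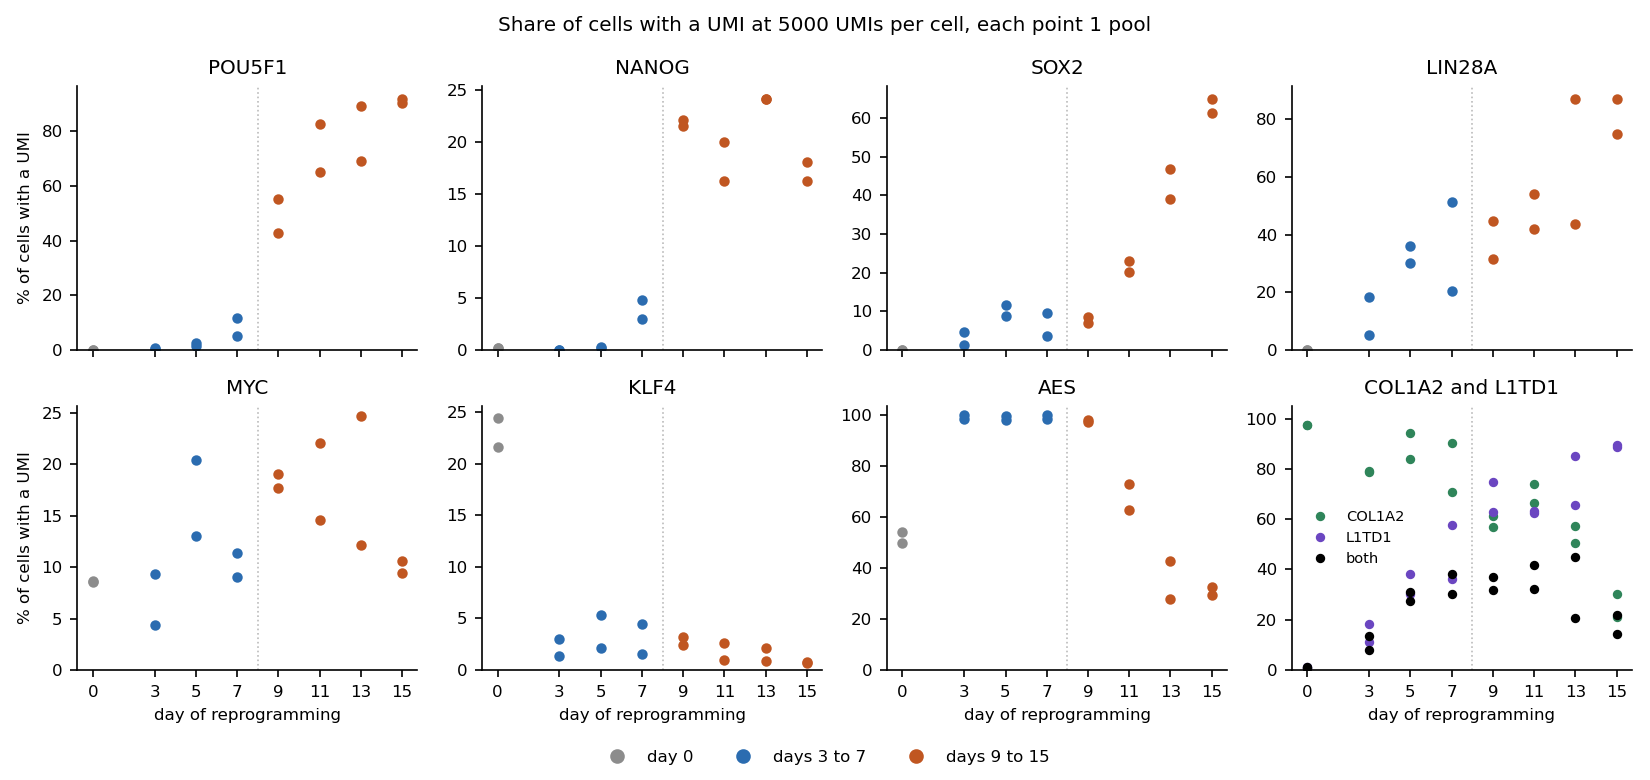
Share of cells (y axis, %) with at least 1 UMI of a gene after thinning each cell to 5000 UMIs, for each pool by day of reprogramming; the last panel gives COL1A2, L1TD1 and both in the same cell. POU5F1 goes from at most 11.7% in the early pools to at least 42.8% in the late pools, while SOX2 passes the early range only from day 11 and AES comes down only after day 9.

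Genes of the pluripotency network that were not transfected almost all had a higher late mean, though their courses within the late days differed, as with NODAL and LEFTY2 above. Of 34 tested, 33 were called higher in the late pools and 0 lower, all 33 at 2-fold or more, with a median log2 difference of 5.91, where all genes tested gave 21% called higher and a median of −0.02. The exception was ETV4, an ETS factor, at 51.8 CPM early and 59.7 CPM late. DNMT3B (chromosome 20, 32762385 to 32809359), a de novo DNA methyltransferase, was between 0.563 and 3.90 CPM in the early pools, at 27.4 and 29.3 on D9 and at 212 and 177 on D15 (6.19, SE 0.17, adjusted p = 5e-11). The RNA-binding protein L1TD1 averaged 2.11 CPM on D0, 132 CPM in the early and 599 CPM in the late pools, and the shelterin component TERF1 41.1, 47.5 and 900 CPM. The list was chosen with knowledge of such cells, and 30 of its members had no overlap between the classes, against 9.89% of all genes in this direction and 7.97% in the other. It held 36 genes, and members nearly silent early passed the detection filter only through late cells, which favours rises.

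L1TD1 and the fibrillar collagen COL1A2 were each found in many cells, so a UMI of both was frequent too. COL1A2 was found in 71.0% and 90.1% of cells on D7 and 21.0% and 30.2% on D15. L1TD1 was found in 57.6% and 36.1% on D7 and 89.5% and 88.7% on D15. Whether the 2 genes went together beyond these single shares was not tested. At 5000 UMIs per cell both were found in 7.85% and 13.7% of cells on D3, 38.3% and 30.1% on D7, 31.9% and 37.1% on D9, 41.8% and 32.4% on D11, 20.9% and 44.9% on D13 and 14.2% and 22.03% on D15, with 1.06% and 0.90% on D0. COL3A1 and DNMT3B were found together in at most 0.962% of cells in any early pool and in 1.16% to 9.96% in the late pools. The single shares of COL3A1 were 69.4% to 92.4% early and 9.98% to 37.7% late. Those of DNMT3B were 0.241% to 1.60% early and 9.56% to 57.1% late, and the joint share cannot exceed them. Whether this pair went together beyond its single shares was not tested either. Free RNA in the droplets and droplets with 2 cells could both give such pairs, and their part was not tested.

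The epithelial genes tested rose without exception. All 29 tested members of the list of junction proteins and their regulators were called higher late, each at 2-fold or more, with a median of 4.20, where 21% of all genes were called higher and 11.1% at 2-fold. The list held 32 genes, and members nearly silent early, such as CDH1, passed the detection filter only through late cells, which favours rises. The adhesion molecule CDH1 (chromosome 16, 68737292 to 68835537) was at most 0.0296 CPM on D3 and D5, at 0.329 and 0.232 on D7, 5.66 and 6.44 on D9 and 40.2 and 37.8 on D15. EPCAM (chromosome 2, 47345158 to 47387601) was at 21.5 and 10.9 CPM on D7, 135 and 162 on D9 and 218 and 213 on D15 (5.82, SE 0.21, adjusted p = 2.2e-10). The splicing regulator ESRP1 and the trafficking protein RAB25 had 26.8 and 25.8 CPM late and 0.352 and 0.253 CPM early.

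Of 33 genes of fibroblast and mesenchymal identity, 28 were called lower and 1, MEOX1, higher, with a median of −1.59 (22.5% of all genes were called lower). The transcription factor OSR2 fell by 3.59 on the log2 scale and the hyaluronan receptor CD44 by 2.61. DCN (chromosome 12, 91140484 to 91183217), a small proteoglycan, had early pools between 109 and 294 CPM and late pools from 60.9 and 46.4 on D9 to 2.09 and 4.08 on D15. HOX genes, which record the position of a cell along the body axis, gave a like picture: 12 of 14 tested were called lower and 0 higher, with a median of −1.43. The list held 32 genes, and the rest did not pass the detection filter. HOXA9 went from 21.7 and 22.1 CPM on D7 through 15.1 and 12.8 on D9 and 6.39 and 7.05 on D11 to 1.27 and 0.631 on D15 (−2.77, adjusted p = 1.2e-08). Its neighbour HOXA10, whose annotated span overlaps it, fell by 1.95 on the log2 scale, and was not called with the class as the only factor (−1.48, adjusted p = 0.023) and stood at −1.18 without D15.

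Genes of the extracellular matrix went in both directions. Of 30 genes of the fibrillar matrix, 7 were called higher and 10 lower, with a median of −0.14, and the share called higher is close to the 21% of all genes (22.5% were called lower). COL3A1, COL6A2 and COL6A1 fell by 2.68, 2.09 and 1.60 on the log2 scale, while COL1A1 was not called at 886 CPM early and 741 CPM late. Elastin and fibronectin rose. ELN (chromosome 7, 74027789 to 74069907) had early pools between 2.01 and 6.90 CPM and late pools of 10.6 and 10.9 on D9, 87.7 and 62.5 on D11, 116 and 56.6 on D13 and 21.5 and 34.2 on D15 (3.19, SE 0.24, adjusted p = 1.8e-07). FN1 (chromosome 2, 215360440 to 215436073) stood at 128 and 203 CPM on D7, 181 and 180 on D9, 718 and 692 on D11, 667 and 605 on D13 and 270 and 357 on D15, so that its rise of 1.65 (adjusted p = 1.5e-07) came after D9, with D9 inside the early range. Among 15 basement membrane genes 7 rose and 5 fell, with the laminin chain LAMA5 at 1.22 (0.70 without D3) and the nidogen NID2 at −2.76.

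Genes of the contractile cytoskeleton, a smooth muscle-like programme driven by serum response factor and YAP, were called higher in 11 of 23 cases and lower in 2, with a median of 0.51 (21% and 22.5% of all genes). TAGLN (chromosome 11, 117199370 to 117207464), an actin-binding protein, was at 129 and 127 CPM on D3, 217 and 167 on D5, 582 and 652 on D7, 1104 and 1043 on D9, 2975 and 2081 on D11, 2385 and 1006 on D13 and 651 and 885 on D15 (2.47, SE 0.19, adjusted p = 1.7e-07). The classes overlapped only through pool A of D15, which lay just below pool B of D7. CNN1 (3.58) and the YAP target ANKRD1 (5.75; 2.86 without D3, and 2.80 with adjusted p = 0.047 and no call with the class as the only factor) rose too, and the smooth muscle actin ACTA2 averaged 114 CPM early and 433 CPM late. The caveolar protein CAV1 was the larger of the 2 falls (−1.63).

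**Figure D5:**
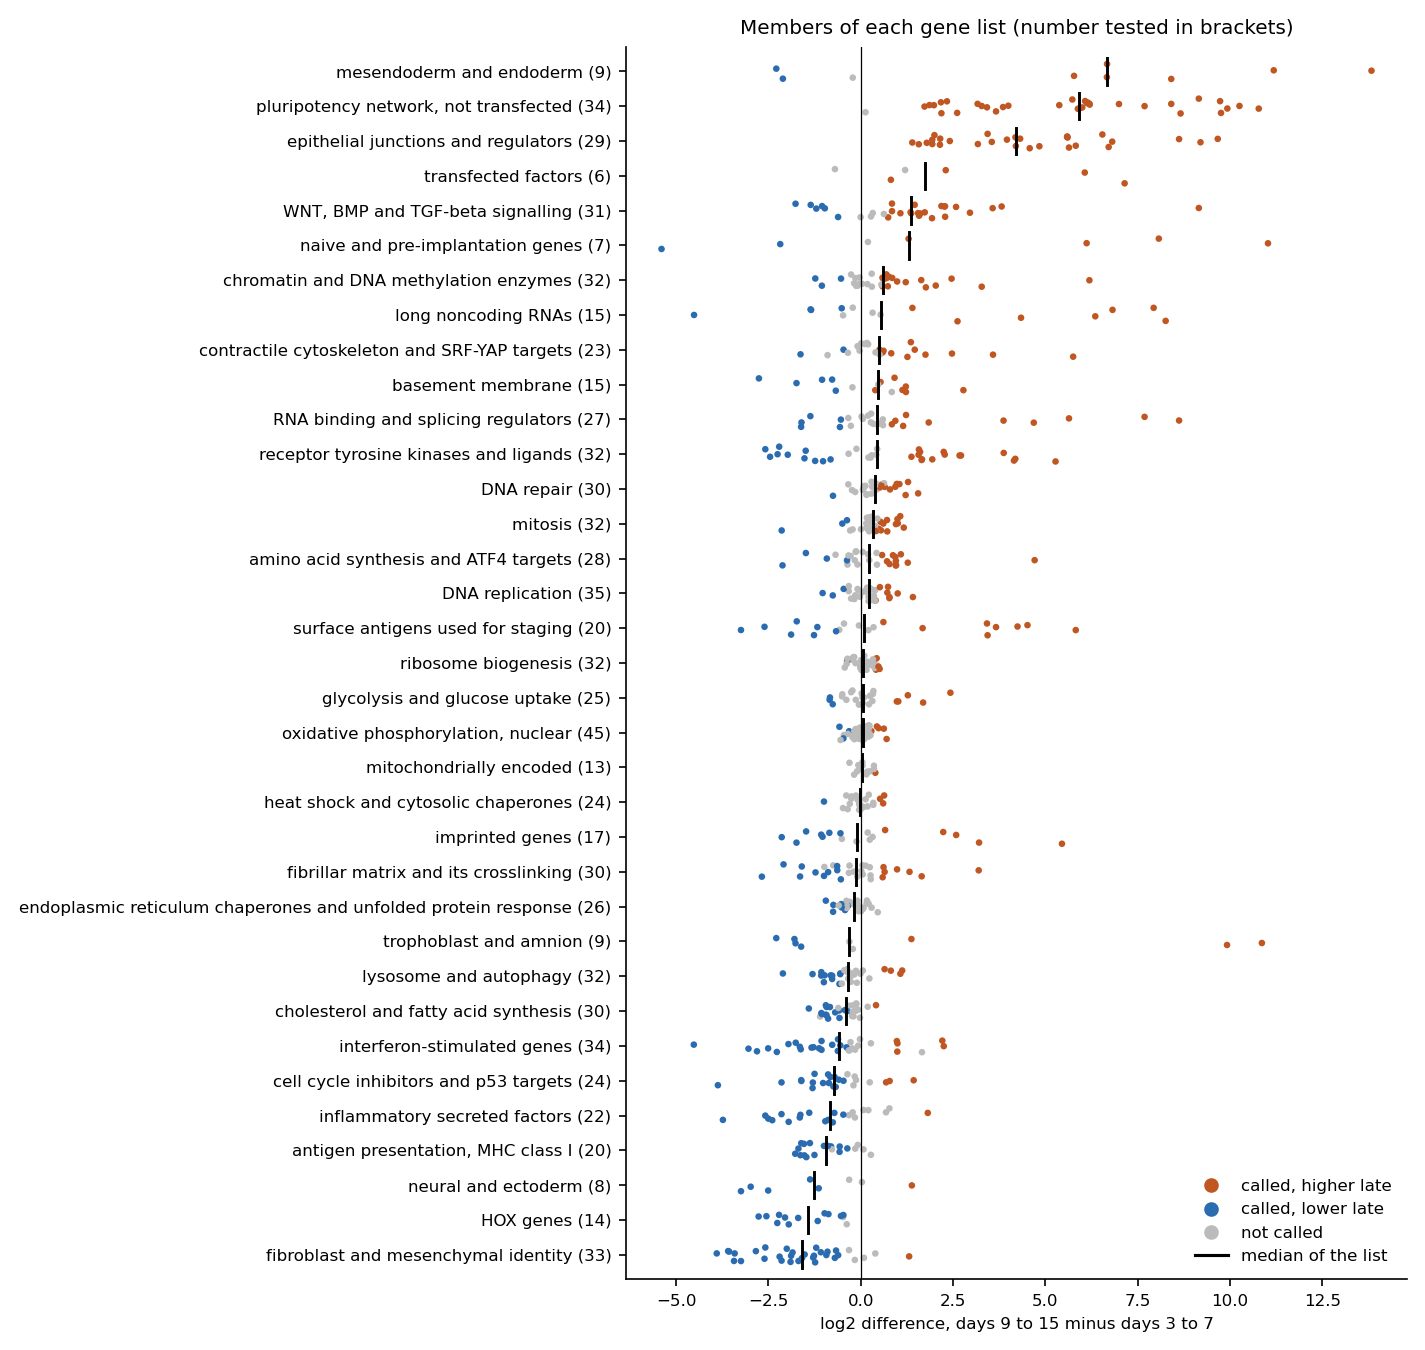
Fitted log2 difference between days 9 to 15 and days 3 to 7 (x axis) of each tested member of 35 gene lists (y axis, in order of their medians, black bars). Epithelial genes lie wholly to the right of 0, HOX genes wholly to its left, and lists of oxidative phosphorylation, ribosome biogenesis and heat shock sit close to it.

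Of 22 secreted inflammatory factors tested, 14 were called lower, 1 higher and 7 neither, with a median of −0.82 (22.5% of all genes were called lower). MMP1 (chromosome 11, 102789401 to 102798160), a collagenase, had early pools of 1805, 1108, 2008, 1112, 360 and 428 CPM from D3 to D7, late pools of 325, 190, 423 and 483 CPM on D9 and D11, and 1.09 and 7.58 CPM on D15 (−3.73, adjusted p = 1.6e-06); it was not called with the class as the only factor (−2.56, adjusted p = 0.034) and stood at −2.39 without D15. The chemokine CXCL8 was highest on D5, at 99.3 and 89.0 CPM, and its call (−2.50, adjusted p = 0.00049) was lost without D5 (−1.31, adjusted p = 0.058), without D13 (−1.74, adjusted p = 0.011) and with the class as the only factor (−1.69, adjusted p = 0.26), and it stood at −1.62 without D15. HGF, the ligand of the MET receptor, fell by 2.59 on the log2 scale.

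Genes of antigen presentation by MHC class I fell, with 15 of 20 tested genes called lower and 0 higher and a median of −0.95 (22.5% of all genes were called lower and 21% higher). B2M (chromosome 15, 44711358 to 44718851), the invariant light chain, was at 2413 and 2258 CPM on D0, 1574 and 1275 on D3, 1868 and 2077 on D5, 1087 and 1238 on D7, 715 and 587 on D9 and 190 and 228 on D15 (−1.78, SE 0.11, adjusted p = 1.7e-08). The early and late pools did not overlap. HLA-B fell by 1.64 on the log2 scale, with the reservation that reads of HLA genes can be shared among them. The peptide transporter TAP1 went from a mean of 11.4 to 4.49 CPM, whereas the endoplasmic reticulum chaperones CALR and PDIA3, which load class I molecules among other tasks, were not called (0.07 and 0.27).

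Interferon-stimulated genes fell in part. Of 34 tested, 19 were called lower and 5 higher, with a median of −0.59, against 22.5% and 21% of all genes. The RNA sensor IFIH1 had the largest fall of the list, the antiviral IFIT1 fell too, and HERC5, a ligase for ISG15, and the membrane tether BST2 rose. The 250 bases before their RefSeq start sites (GRCh38.p14) are shown because these genes of 1 response class moved in opposite directions while all 4 hold the letters GAAANNGAA, the core of the element bound by interferon-activated factors, on at least 1 strand. Capitals mark these letters on either strand (on the other strand they read as their reverse complement), and adjacent matches overlap by 3 bases in IFIH1, HERC5 and BST2.
IFIH1 (chr2:162318685-162318934, minus strand): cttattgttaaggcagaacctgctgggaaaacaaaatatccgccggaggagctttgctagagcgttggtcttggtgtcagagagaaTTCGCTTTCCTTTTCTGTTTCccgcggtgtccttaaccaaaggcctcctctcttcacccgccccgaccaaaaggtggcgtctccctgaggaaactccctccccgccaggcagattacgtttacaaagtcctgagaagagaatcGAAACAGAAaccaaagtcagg
IFIT1 (chr10:89392373-89392622, plus strand): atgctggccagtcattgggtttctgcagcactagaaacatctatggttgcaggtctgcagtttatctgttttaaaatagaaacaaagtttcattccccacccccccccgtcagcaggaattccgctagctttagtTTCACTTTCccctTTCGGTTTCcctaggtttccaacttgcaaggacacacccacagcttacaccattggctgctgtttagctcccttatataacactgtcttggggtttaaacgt
HERC5 (chr4:88456869-88457118, plus strand): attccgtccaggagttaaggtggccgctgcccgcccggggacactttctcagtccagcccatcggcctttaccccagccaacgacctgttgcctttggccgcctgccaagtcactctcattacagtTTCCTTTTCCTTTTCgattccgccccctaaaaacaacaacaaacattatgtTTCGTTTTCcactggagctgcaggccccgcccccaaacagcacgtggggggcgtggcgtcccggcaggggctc
BST2 (chr19:17405631-17405880, minus strand): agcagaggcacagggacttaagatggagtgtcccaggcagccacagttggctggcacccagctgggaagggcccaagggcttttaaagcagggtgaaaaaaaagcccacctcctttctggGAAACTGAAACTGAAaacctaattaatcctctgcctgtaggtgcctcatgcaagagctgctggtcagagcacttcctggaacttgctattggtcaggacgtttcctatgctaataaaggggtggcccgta

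IFIH1 stood at 11 and 19.9 CPM on D3, 12.98 and 16.3 on D5, 18.9 and 13.8 on D7, 4.58 and 3.37 on D9, 0.512 and 0.705 on D11 and at most 0.425 CPM thereafter (−4.52, SE 0.19, adjusted p = 7.4e-10), and its early level was above the 5.15 and 4.75 CPM of D0. IFIT1 stood at 13.6 and 12.7 CPM on D7 and at 3.30 and 3.39 on D9 (class difference −2.27, adjusted p = 3.8e-07), with 37.1 and 31.7 CPM on D0. BST2 was at 6.66 and 6.35 CPM on D7, 21.2 and 25.3 on D9 and 49.2 and 35.6 on D15 (2.21, SE 0.11, adjusted p = 3.7e-09), and every late pool was above every early pool. HERC5 likewise had early pools between 1.59 and 11.96 CPM and late pools between 13.8 and 31.9 (2.25, adjusted p = 8.1e-06).

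Of the 34 genes of the list, 28 had a RefSeq promoter (250 bases before to 50 after the start), and 18 of the 28 (64.3%) held GAAANNGAA on either strand. Among all promoters matched it was 637 of 10210 (6.24%), which describes the matched promoters only, since they belong to 79.8% of the genes tested. Among these 18, 2 were called higher and 11 lower late, and among the 10 without it 0 were called higher and 6 lower. The letters thus occurred in genes of both directions, and a match is no evidence of binding. The same search was made for ATGCAAAT (octamer), TGANTCA (AP-1), CATTCC (TEAD) and CACGTG (E-box), which the promoters of the interferon list held in 0, 2, 7 and 4 of 28 cases, and 1.23%, 4.4%, 10.6% and 10.3% of all matched promoters. No share is given for all rises or falls, since 72.2% and 76.4% of them had a promoter and such a check is void below 80%, a limit that the matched promoters as a whole also miss.

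Cell cycle inhibitors and targets of p53 fell, with 16 of 24 called lower, 3 higher and a median of −0.73 (22.5% and 21% of all genes). The inhibitor CDKN2C (chromosome 1, 50960745 to 50974634) went from 10.6 and 12.8 CPM on D7 to 2.45 and 2.41 on D9 and 0.243 and 0.268 on D15 (−3.87, SE 0.15, adjusted p = 3.2e-10), from 52.4 and 51.8 CPM on D0. CDKN1A, the main p53-induced inhibitor, had early pools between 99.5 and 192 CPM and late pools between 14.7 and 87.2 (−1.61, adjusted p = 1.5e-05). CDKN2B rose, by 1.43.

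Genes of DNA replication and mitosis are given beside the 21% of all genes called higher and the 22.5% called lower. Of 35 DNA replication genes 8 rose and 3 fell, with a median of 0.21, and of 32 mitotic genes 12 rose and 3 fell, with a median of 0.33. The primase PRIM1 rose by 1.41 and the anaphase ubiquitin-conjugating enzyme UBE2C by 1.00, while thymidylate synthase (TYMS) fell by 1.03 on the log2 scale and the phosphatase CDC25B by 2.14. Of 30 DNA repair genes 11 rose and 1, RAD51C, fell. MSH6, a subunit of the mismatch sensor, was among the rises, from 40.7 and 32.5 CPM on D7 through 42.5 and 60.05 on D9 to 134 and 137 on D15, with a difference of 1.21.

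Of 32 chromatin regulators 16 were called higher and 3 lower, with a median of 0.59 (21% and 22.5% of all genes). Beside DNMT3B the largest rises were those of JARID2, an accessory protein of Polycomb complex 2, and PHC1, a subunit of Polycomb complex 1. JARID2 was at 34.1 and 27.4 CPM on D7, 75.4 and 96.3 on D9, 148 and 160 on D11, 146 and 352 on D13 and 230 and 220 on D15 (3.27, SE 0.23, adjusted p = 8.3e-08). PHC1 went from 16.5 and 21.6 CPM on D7 through 29.5 and 29.8 on D9 to 83.1 and 84.6 on D15. The core Polycomb enzyme EZH2 was not called, at 31.7 CPM early and 29.4 CPM late, and its partner EED had a difference of −0.54. Its call was lost in 9 of 33 settings. These include the fits without D3 (−0.46, adjusted p = 0.016), without D13 (−0.47, adjusted p = 0.012) and without D15 (−0.50, adjusted p = 0.013), and those without 1 of 5 single pools (−0.52 to −0.39). The oxidising enzymes of methylated DNA differed among themselves: TET1 rose by 2.03, TET2 fell by 1.23 on the log2 scale and TET3 was not called (−0.18).

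Energy metabolism was close to the median of all genes. Of 45 nuclear genes of oxidative phosphorylation 5 were called higher and 3 lower, none at 2-fold, with a median of 0.05, and of 25 glycolytic genes 5 were higher and 3 lower, where all genes gave 21% higher and 22.5% lower. Single genes of glycolysis moved in both directions. The glucose transporter SLC2A3 (chromosome 12, 7919230 to 8019007) had early pools between 11.5 and 39.4 CPM and late pools between 93.5 and 153 (2.43, SE 0.11, adjusted p = 1.3e-09), whereas LDHA, which makes lactate, had early pools between 939 and 1960 and late pools between 448 and 943 CPM (−0.83, adjusted p = 0.00057).

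Genes of cholesterol and fatty acid synthesis fell in 14 of 30 cases and rose in 1, with a median of −0.40. Of all genes 22.5% were called lower and 21% higher. INSIG1, the sterol-sensing brake on the pathway, had early pools between 48.4 and 156 CPM and late pools between 20.1 and 44.7, with no overlap (−1.41, adjusted p = 1.2e-07), and the mevalonate enzymes MVK and MVD fell by 1.07 and 1.05 on the log2 scale. Lysosomal genes fell in 12 of 32 cases and rose in 4, against the same 22.5% and 21%, from the cathepsin CTSK at −2.11 to the cathepsin CTSH at 1.12. Of 26 genes of endoplasmic reticulum folding 7 were lower, a share close to the 22.5% of all genes, and 0 higher, and of 28 genes of amino acid synthesis and the ATF4 response 11 were higher and 4 lower (21% and 22.5% of all genes), with the glycine-cleaving GLDC at 4.71 and the citrulline-using ASS1 at −2.12.

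Signalling genes rose and fell side by side. Of 32 receptor tyrosine kinases and ligands 15 were called higher and 10 lower (21% and 22.5% of all genes). The receptors EPHA1 and ERBB3 rose by 4.15 and 2.71 and the ligand PDGFA by 3.87, while EGFR and the ligand KITLG fell by 2.25 and 2.46 on the log2 scale. Of 31 genes of the WNT, BMP and TGF-beta pathways 21 were higher and 6 lower, with a median of 1.37, the share called lower being near that of all genes. Members nearly silent early, such as NODAL, passed the detection filter only through late cells, which favours rises. The WNT receptors FZD5 and FZD3 rose by 3.81 and 2.96, and the ligand WNT5A, the receptor TGFBR2 and the WNT antagonist SFRP1 fell by 1.36, 1.20 and 1.05. WNT5A stood at −0.84 (adjusted p = 0.0024) without D15, and SFRP1 lost its call without D13 (−0.60, adjusted p = 0.015).

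Genes of other lineages and imprinted genes are given beside the 21% of all genes called higher and the 22.5% called lower. In these lists too, members nearly silent early, such as CER1, KDR and CSH1, passed the detection filter only through late cells, which favours rises. Of 9 mesendoderm genes tested (16 listed) 6 rose and 2 fell. The rises include CER1 and LEFTY1, which is also on the pluripotency list. The VEGF receptor KDR rose from 0.959 and 0.724 CPM on D7 to 28.6 and 20.8 on D15. HHEX and PRDM1 fell by 2.29 and 2.11 on the log2 scale. The summed level of the mesendoderm markers ran from 0.338 to 1.38 CPM early and from 13.8 to 199 CPM late. Of 8 neural genes 5 fell and 1 rose. The microtubule regulator STMN2 was already at 214 and 206 CPM on D0, so a neural name does not describe where its RNA was. Among 9 genes of trophoblast and amnion, CSH1, CSH2 and IGFBP3 rose and TFAP2A, PGF, GATA2 and ISL1 fell. The call of IGFBP3 (1.37) was lost without D3 (0.49, adjusted p = 0.067). Among imprinted genes 5 of 17 rose and 7 fell, and SNRPN (chromosome 15, 24823637 to 24978723), a splicing factor gene, was among the rises, from 150 and 116 CPM on D7 to 326 and 337 on D9 and 865 and 736 on D15 (2.58, adjusted p = 2.7e-09); its transcript is shared with SNURF.

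The remaining lists were as follows, where 21% of all genes tested were called higher and 22.5% lower. Here too the detection filter favours rises among members nearly silent early, such as DPPA5. Of 27 RNA-binding and splicing regulators 10 rose and 5 fell, of 20 surface antigens 8 and 7, of 15 long noncoding RNAs 7 and 4, of 7 naive and pre-implantation genes 4 and 2, of 24 heat shock genes 3 and 1, of 32 ribosome biogenesis genes 4 and 1, and of 13 mitochondrially encoded genes 1 and 0.

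For 314 genes (2.45%) the 95% interval of the difference lay within 0.25 of 0. The most abundant of these was FAU, a ribosomal protein precursor, at 1574 to 1998 CPM in the early and 1635 to 2126 CPM in the late pools (0.03, interval −0.15 to 0.21), followed by the mitochondrial carrier SLC25A6 (0.05).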

How the data were processed

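Single-cell RNA was captured with the 10x Genomics 3' chemistry. The authors counted UMIs per gene and cell barcode with Cell Ranger 2.2 on hg38, per the labels and the study's methods, and the deposited values are raw counts for 33694 genes in 22 libraries. For this work the libraries of a pool were summed, which gave 16 pools; the libraries of a pool shared at most 2 barcodes. A barcode was retained as a cell if 1000 or more genes were detected and mitochondrial UMIs made up no more than 10% (41975 of 44197 barcodes; no doublet caller was used), and genes detected in at least 5% of kept cells were tested (12794). edgeR 4.0.16 (R 4.3.3) was fitted to all 16 pools with 1 coefficient per day and TMM scaling, and the mean of D9, D11, D13 and D15 was compared with that of D3, D5 and D7, with Benjamini-Hochberg adjustment over all genes. DESeq2 1.42.0 was an alternative. In simulated counts for this comparison, 6, 41, 50 and 50 of 50 genes were called at 1.5-, 2-, 4- and 8-fold, with 5 false calls among the unchanged genes of the 12794. The simulation held no spread between the days of a class, so false calls from that source are not counted.

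CPM values of single genes are counts scaled to an equal total over the kept cells of a pool, after a scaling factor adjusted that total. Summed levels of marker lists use the unadjusted totals. Shares of cells are expected values after thinning every cell to 5000 UMIs, which no cell fell short of. Counting intervals cover counting error only. Coordinates are those of GENCODE 44 on GRCh38, matched by Ensembl identifier. Pool letters were not used to pair the pools in the main fit. Over 28 pairs of days the correlation of the differences between pools A and B ran from −0.45 to 0.81, with a median of −0.00039 and 9 above 0.1. Pools of some days thus shared differences, and whether pools are independent across days was not tested.

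Named genes were the 12 largest rises and 12 largest falls (2-fold or more, no overlap, at least 50 CPM in the higher class, without mitochondrial, ribosomal protein and sex-specific genes), up to 3 called rises and 3 called falls per list at 10 CPM or more, the 5 and 5 with the largest and smallest shares of the D7 to D9 step in each direction, the transfected factors with AES, and the 5 most abundant genes whose interval lay within 0.25 of 0. Further list members (such as ETV4, L1TD1, TERF1, MEOX1, COL1A1, ACTA2, TAP1, EZH2, TET1) were named after their values were seen. The comparison, the lists and the members were chosen with earlier results of these data known. Of the 924 distinct genes listed, 818 were tested. Figures were drawn with matplotlib 3.10.9. Some genes of the lists are not reported here.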

Additional observations from a re-analysis of the deposited data

Results flagged for a closer look

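Among 248 sets of pools examined (the early or the late pools of 126 genes named above, on the log2 scale, and of 3 depth measures), 3 (1.21%) had a pool far from the rest. The about 5% that chance would give holds for pools of like samples. Here each set joins several days, and changes between days widen its range, so the low share does not show that outlying pools are absent. A further 10 sets with a pool at 0 UMIs were not examined. MAP2 was at 23.7 CPM in pool A of D3, with the other early pools between 37.3 and 43.7 CPM, and CNRIP1 was at 72.3 CPM in the same pool, with the others between 45.2 and 53.9. LGALS3 was at 228 CPM in pool A of D7, with the other early pools between 459 and 691 CPM.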

How the results depend on the processing

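The number of genes called depended most on which genes were tested and on what counted as error. Without a filter on genes 10400 of the 29281 genes with a UMI were called, a smaller share than the 43.5% above. Of these, 5317 were higher and 5083 lower late, with the median over all genes at −0.13. At 2-fold or more it was 6800, 4177 higher and 2623 lower, and all 2569 genes called at 2-fold above remained among them. With the class as the only factor 3537 genes were called, 1688 of them lower. Of the 197 genes covered by the naming rule 41 lost their call and 3 moved; those described above were AES, ANKRD1, ANXA2, CXCL8, EED, HOXA10, IGFBP3, MMP1, MYC, PGF, SFRP1, TFAP2A, TYMS and WNT5A. DESeq2 called 6278 genes and DESeq2 size factors in edgeR 5567. The fit with the replicate block (pool letter) called 5849. Leaving out 1 pool at a time gave 4818 to 6107 genes called (2379 to 2923 higher, 2437 to 3184 lower) and 2495 to 2696 at 2-fold or more (1401 to 1507 higher, 1054 to 1242 lower). Genes with no overlap, called or not, numbered 2285 (17.9%) with all pools and 2319 to 2843 with 1 left out. Leaving out a pool makes that rule easier to pass, so this range is no check of it. Leaving out both pools of D15 gave 4366 genes, of D5 4690 and of D3 5083; 18 called genes changed sign without D3. Without thinning the difference between the classes was 55.2 percentage points for NANOG. For AES the late share, also without thinning, lay 5.41 points below the early share. KLF4 was called without the gene filter (−0.81, adjusted p = 0.0056). Genes that change between cell types within a pool cannot be resolved by these sums.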
